A study of Mus musculus with 4 samples.

Results

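The genes described here encode the proteins of the cytosolic ribosome. They were taken by name, as every gene whose symbol is Rpl, Rplp or Rps followed by a number and, where present, one of the endings a, x, y, l or l1. The rule found 85 of the 55487 genes measured, 53 of the large subunit and 32 of the small subunit, and 81 of the 85 are annotated as protein coding. The other members are Rpl32l, Rpl6l, Rps4l and Rps12l1, which the annotation does not class as protein coding. Some ribosomal protein genes, such as Fau and Rpl36al, have symbols outside the rule, and these are given beside the members where useful.

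RNA was sequenced from satellite cells, the resident stem cells of skeletal muscle, which express Pax7. They were taken straight after isolation. The first group was 2 Rbfox2 conditional knockout (cKO) libraries, from mice that carry floxed Rbfox2 and Pax7CreERT2, so that tamoxifen deletes the gene in satellite cells, with a Rosa26 EYFP allele to mark the cells. The second was 2 Control libraries, labelled only as Control, and the labels do not say whether those mice carried the Cre or the reporter or had tamoxifen. The labels give no age or sex, and do not say that the 2 libraries of a group came from separate animals, so each p-value measures only how far these samples differ, and that spread may be technical. Rbfox2 encodes a splicing regulator that binds RNA, and the study asked about its role in satellite cell activation.

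Each ribosome joins a small subunit, which reads the mRNA, to a large subunit, which forms the peptide bond. Cells make one copy of nearly every ribosomal protein per ribosome, and the mRNAs are among the most abundant in any cell. In vertebrates these mRNAs begin with a C and a run of pyrimidines, the 5' terminal oligopyrimidine (TOP) tract, through which mTOR signalling and the protein Larp1 control their translation. Several ribosomal proteins have a paralog used in particular tissues, such as Rpl3l in muscle fibres and heart and Rpl10l and Rpl39l in the testis. Ribosomal protein genes have also left many processed pseudogenes, intronless copies of the mRNA elsewhere in the genome.

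Before the members, the libraries were compared as a whole. Rbfox2 itself stood at 40.0 and 15.2 CPM in the cKO libraries and at 131 and 56.0 CPM in the Control libraries. CPM is the count scaled to a common library size, here after TMM normalisation. The Rbfox2 log2 fold change was -1.76 (SE 0.35, edgeR quasi-likelihood test, adjusted p = 0.000252), and on TPM it was -1.16 (limma, adjusted p = 0.237). The edgeR call was lost with any 1 library left out (adjusted p 0.23 to 1.00), with log2 fold changes of -2.61 to -1.04. TPM is a level per transcript length, with the same total in all libraries. Total estimated counts were 68884091 and 101997422 in cKO and 84869830 and 85499716 in Control. The cKO 1 library stood apart, with a median TPM over all genes of 0.771 against 0.312 in cKO 2 and 0.392 and 0.437 in Control, and a TMM factor of 1.27 against 0.876 to 0.965 in the other 3. All 9 satellite cell markers were detected in all libraries, with a summed TPM of 16860 and 17620 in cKO and 16630 to 17360 in Control. Of the red cell markers 5 of 5 rose in cKO by edgeR, where 0.551% of all genes tested were called in either direction. These markers summed to 1798 and 1471 TPM in cKO and 336 and 763 TPM in Control. Macrophage, endothelial and fibro-adipogenic markers also summed higher in both cKO libraries, with 0 genes called. The 6 macrophage markers summed to 46.6 and 41.2 TPM in cKO and 27.7 and 30.4 TPM in Control. The 4 endothelial markers summed to 51.4 and 42.9 TPM in cKO and 34.9 and 36.8 TPM in Control. The 4 fibro-adipogenic markers summed to 256.8 and 172.2 TPM in cKO and 149.6 and 167.1 TPM in Control. The 14 mature fibre markers did not sum higher: their sums overlapped between the groups, with 0 genes called. Their median edgeR log2 fold change was -0.46 and 11 were negative, where 45% of all genes were. None of these markers was at 0 in all libraries, and the part of these cells in the results below was not tested.

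The start regions of the members are shown first, since the TOP tract is the feature these genes are known to share. RefSeq promoter windows on GRCm38.p6, from 250 bases before to 50 after each annotated start, were at hand for 62 of the 85 members. The lines below give, 5' to 3' on the gene's strand, the 20 bases before a start and the first 25 bases from it. Capitals mark the longest run of C and T in the window that begins with C. The first 4 are members with a long tract. Rps27l and Rpl22l1 are paralogs whose RNA was well detected in these cells, and Rpl3l is a paralog that was barely detected.
Rps10, chr17:27635220-27635264, minus strand: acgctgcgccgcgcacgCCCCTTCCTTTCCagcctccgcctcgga
Rps6, chr4:86857343-86857387, minus strand: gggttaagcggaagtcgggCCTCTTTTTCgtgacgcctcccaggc
Rpl28, chr7:4792945-4792989, plus strand: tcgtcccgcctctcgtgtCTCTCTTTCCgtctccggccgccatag
Rps27, chr3:90213624-90213668, minus strand: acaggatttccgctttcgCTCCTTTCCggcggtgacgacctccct
Rps27l, chr9:66946066-66946110, plus strand: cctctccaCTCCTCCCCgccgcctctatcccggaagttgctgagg
Rpl22l1, chr3:28805488-28805532, plus strand: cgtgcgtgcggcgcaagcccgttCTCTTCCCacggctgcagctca
Rpl3l, chr17:24727806-24727850, plus strand: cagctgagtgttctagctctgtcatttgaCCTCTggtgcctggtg

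In Rps10, Rps6, Rpl28 and Rps27 the tract spans the annotated start, in Rps27l it ends before it, and in Rpl22l1 it begins 3 bases after it. A C followed by at least 7 C or T on the gene's strand, beginning within 20 bases of a start, was found in 33 of the 62 members (53.2%) and in 16.4% of all 27025 genes in the table. A C exactly at an annotated start followed by at least 4 C or T was found in 14 members (22.6%) and in 3.01% of all genes. On either strand of the whole window, CCGGAAG, the core bound by ETS-family factors, was found in 38.7% of members and 9.93% of all genes, and AAGATGG, a core of the YY1 motif, in 16.1% and 7.28%. GGGCGG, the core bound by Sp1, was in 59.7% of members and 38.2% of all genes, and TATAAA in 12.9% and 15.7%. These shares describe letters in the windows and not binding.

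The members were abundant in all 4 libraries. Their median TPM, averaged over libraries, was 720, with 611 for the large subunit and 906 for the small subunit. Of the 85 members, 30 averaged over 1000 TPM, 46 between 100 and 1000 TPM, and 9 under 100 TPM. The last were Rpl22, Rpl17, Rpl29, Rps4l, Rpl32l, Rpl3l, Rpl39l, Rpl10l and Rps12l1. By TPM Rps20 was the lowest protein-coding small-subunit gene, at 112 and 103 TPM in cKO and 113 and 131 TPM in Control. In CPM, which is not divided by length, Rps20 had 166 and 224 in cKO and 235 and 259 in Control. That was above Rps21, at 36.2 and 54.9 CPM in cKO and 53.6 and 57.3 CPM in Control. Together the 85 members made up 3.51% and 3.28% of all counts in the cKO libraries and 3.59% and 3.95% in the Control libraries.

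No member was called different between cKO and Control by edgeR on the counts. Of the 84 members tested, 0 were called higher and 0 lower at an adjusted p of 0.05, where 0.551% of all 38143 genes tested were called in either direction and 0.186% were called lower. Rps12l1 was not tested because it is listed at 0 in every library. At an unadjusted p under 0.05 there were 2 members, Rpl29 and Rpl3, while 4.83% of all genes were below that mark. DESeq2 also called 0 members.

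The members sat slightly lower in cKO as a group, by an amount that depended on the scaling. The log2 fold change was negative for 79 and positive for 5 of the 84 members in edgeR, and 45% of all genes tested were negative. Among the 80 members with a mean of at least 4 CPM it ran from -0.93 to 0.14. The median log2 fold change was -0.30 over the members, -0.31 for the large and -0.28 for the small subunit, against 0.06 over all genes. With library totals in place of TMM factors the members' median was -0.17 against 0.25 over all genes, and on TPM it was -0.16 against 0.13. Relative to the median of all genes tested the members thus stood at -0.36, -0.42 and -0.29 under the 3 scalings. Against the 10011 genes left when 2 libraries had to reach 5 CPM the shift was smaller, with a members' median of -0.20 and a relative value of -0.22. In RNA from bulk cells, fewer cells of a type and less RNA per cell cannot be told apart, and all 3 scalings are relative to the rest of the RNA. Both cKO libraries were below both Control libraries in CPM for 43 of the 84 members, where this held for 13.3% of all genes. In TPM they were below for 51 of the 81 members with a mean TPM of at least 1, where it held for 15.7% of all genes. The reverse order, both cKO libraries above both Control libraries, was seen in 0 members on either scale, and in 18% of all genes on CPM and 32% on TPM.

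The 2 cKO libraries gave different sizes for this shift. On TMM-scaled CPM the median member stood at -0.54 in cKO 1 and -0.08 in cKO 2, on the log2 scale relative to the Control mean, and at -0.04 and 0.04 in Control 1 and 2. On CPM by library total it stood at -0.13 and -0.19 in cKO and at -0.06 and 0.06 in Control, and on TPM at -0.12 and -0.20 in cKO and at -0.05 and 0.05 in Control. The position of cKO 1 below the rest on the first scale thus came with its TMM factor of 1.27. On TPM the members' median log2 fold change was -0.20 without cKO 1 and -0.12 without cKO 2, against 0.01 and 0.24 over all genes. In edgeR the members' median was -0.06 without cKO 1, equal to the -0.06 over all genes. Without cKO 2 it was -0.61 and 50 members were called lower, where 4.79% of all genes were called lower in the same fit.

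**Figure D1:**
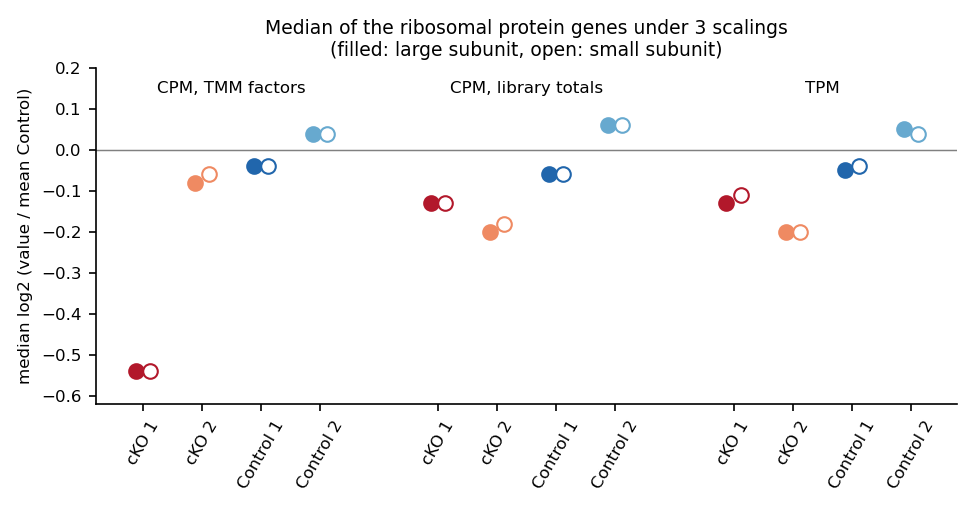
Median over large-subunit members (filled) and small-subunit members (open) of the log2 ratio of each library to the Control mean, with the 2 cKO libraries left of the 2 Control libraries under each of 3 scalings. On CPM with TMM factors cKO 1 lies at -0.54 and cKO 2 beside the Controls, while on library totals and TPM both cKO libraries lie between -0.11 and -0.20.

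The large and the small subunit gave similar values. Summed over the members, TPM was 74256 and 69194 in cKO and 75556 and 82166 in Control, so that the groups did not overlap but cKO 1 and Control 1 lay close together. The mean was 71720 ± 3580 in cKO and 78860 ± 4670 in Control (SD, n = 2 each), a log2 ratio of -0.14. The large-subunit sum was 43114 and 40285 TPM in cKO and 43487 and 47894 TPM in Control. The small-subunit sum was 31142 and 28909 TPM in cKO and 32069 and 34272 TPM in Control. The ratio of the large-subunit to the small-subunit sum was 1.384 and 1.394 in cKO and 1.356 and 1.397 in Control, so the cKO values fell inside the Control range.

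**Figure D2:**
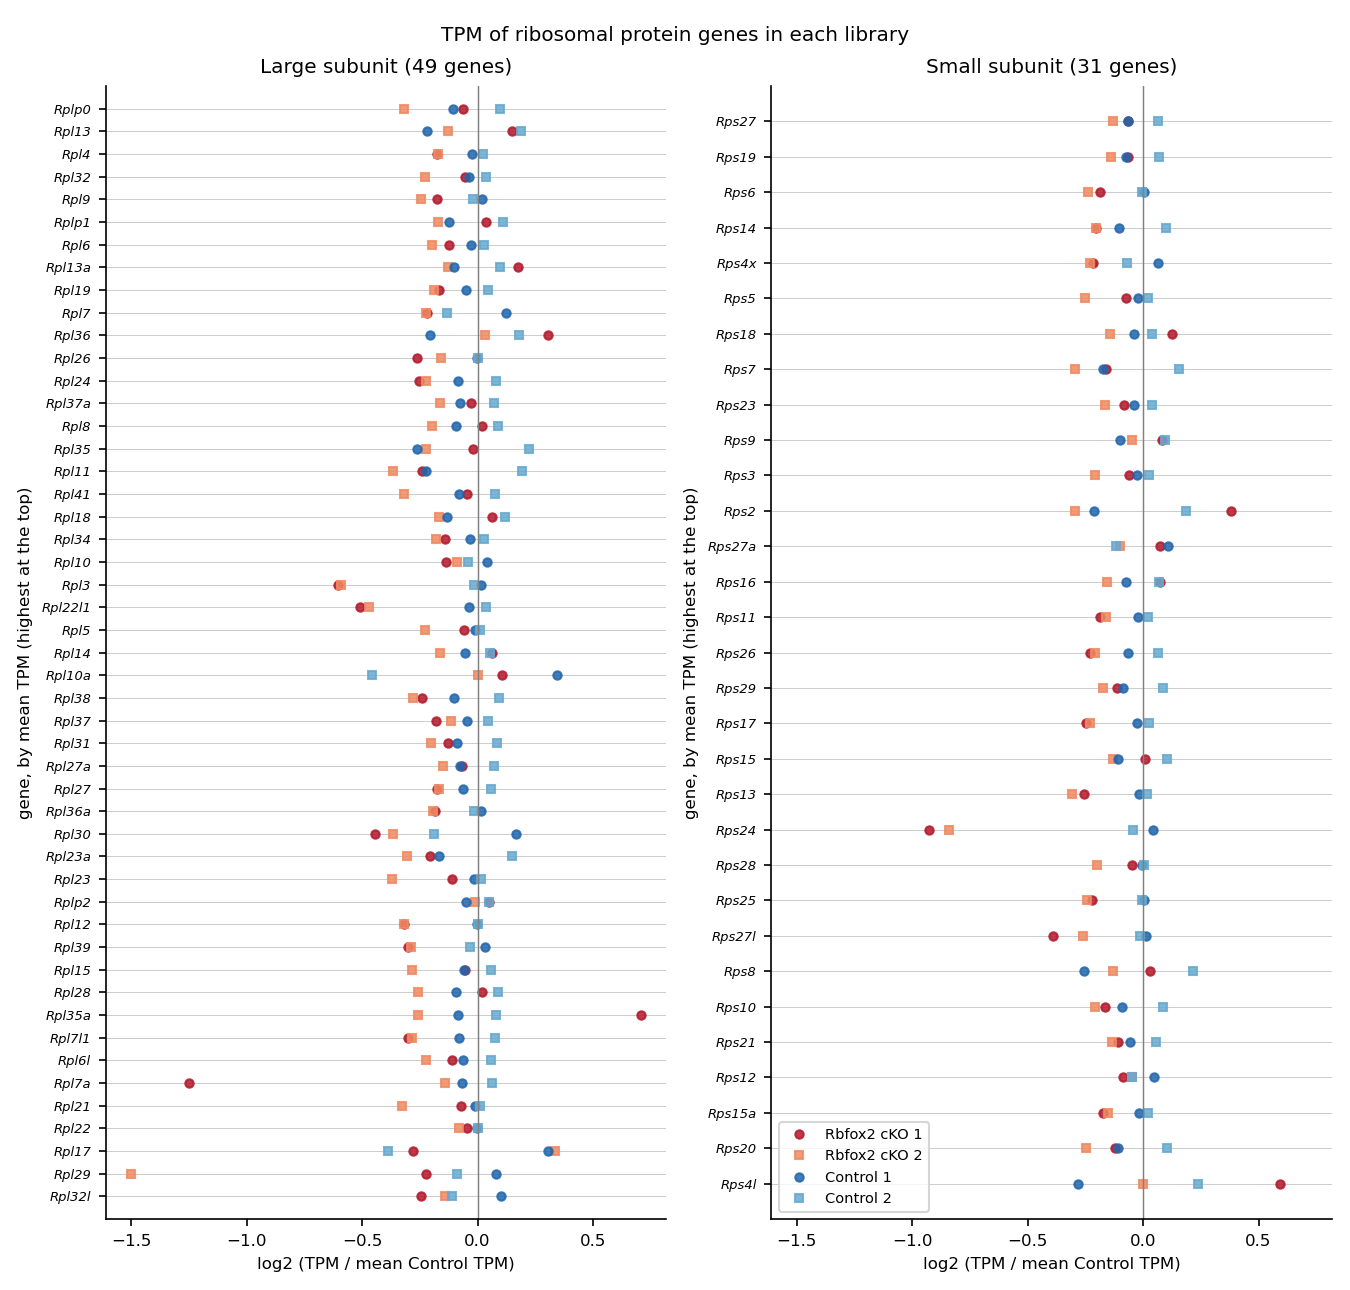
TPM of members with a mean TPM of at least 1, as the log2 ratio to the Control mean of the gene, for 49 of the 50 such large-subunit and all 31 such small-subunit genes ordered by mean TPM, with 1 point per library. Most cKO points (red and orange) lie a little left of 0, and Rpl3, Rpl22l1 and Rps24 stand out with both cKO points far left and both Control points close together.

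The most abundant members showed how small the differences were. Rplp0, the base of the stalk that recruits translation factors, had 4014 and 3354 TPM in cKO and 3895 and 4478 TPM in Control. The other stalk proteins overlapped too, with Rplp1 at 1753 and 1518 TPM in cKO and 1569 and 1846 TPM in Control, and Rplp2 at 397 and 381 TPM in cKO and 371 and 397 TPM in Control. Rpl13 had 3969 and 3284 TPM in cKO and 3080 and 4088 TPM in Control, and again overlapped. Rpl4 had 3130 and 3137 TPM in cKO and 3474 and 3597 TPM in Control, lower in both cKO libraries without passing the test (edgeR log2 fold change -0.31, SE 0.40, adjusted p = 1.00). On the small subunit the highest was Rps27, at 3203 and 3061 TPM in cKO and 3197 and 3499 TPM in Control. Rps19, the gene most often mutated in Diamond-Blackfan anaemia in humans, had 2457 and 2338 TPM in cKO and 2443 and 2701 TPM in Control. Both overlapped between the groups. Rps6, the substrate of the S6 kinases, had 1997 and 1928 TPM in cKO and 2282 and 2264 TPM in Control (edgeR -0.35, adjusted p = 1.00). Rpl5 and Rpl11, which join 5S rRNA in a particle that can bind Mdm2, had 631 and 562 TPM in cKO against 653 and 662 TPM in Control for Rpl5, and 738 and 678 TPM in cKO against 749 and 997 TPM in Control for Rpl11. In both genes the cKO values were the lower ones, without passing the test.

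Rpl3, which encodes a protein next to the peptidyl transferase centre, had 583 and 587 TPM in the cKO libraries and 894 and 877 TPM in the Control libraries. The groups did not overlap, the libraries of each group lay close together, and the mean was 33.9% lower in cKO (585 ± 3.02 against 886 ± 11.5 TPM, SD, n = 2 each). On TPM the log2 fold change was -0.60 (SE 0.10, limma, adjusted p = 0.0632). On counts it was -0.77 (SE 0.38, edgeR, adjusted p = 0.975), or -0.65 with library totals only (edgeR, adjusted p = 0.0102, in a fit that called 0.27% of all genes lower), so the call depended on the scaling.

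The lower Rpl3 level was matched by a higher level of its pseudogenes. Rpl3-ps1, an intronless copy on chromosome X (13202571 to 13203780, plus strand), had 429 and 424 TPM in cKO and 159 and 150 TPM in Control. Rpl3-ps2, also on chromosome X (74170653 to 74171866), had 53.2 and 55.9 TPM in cKO and 20.9 and 19.5 TPM in Control. Both rose in cKO: the log2 fold change was 1.33 for Rpl3-ps1 (SE 0.36, edgeR, adjusted p = 0.0423) and 1.31 for Rpl3-ps2 (SE 0.33, edgeR, adjusted p = 0.0192), and 1.46 and 1.39 on TPM (limma, adjusted p = 0.00192 and 0.0103). Both edgeR calls were lost without Control 1 or without Control 2 (adjusted p = 1.00 in each), with DESeq2 (adjusted p = 0.186 for Rpl3-ps1 and 0.278 for Rpl3-ps2) and with the replicate block (adjusted p = 0.596 and 0.294). On TPM the Rpl3-ps1 call held with each library left out (limma, adjusted p at most 0.0388), and the Rpl3-ps2 call was lost without cKO 1 (adjusted p = 0.0844). Both pseudogenes were chosen after their values were seen, as sequence partners of Rpl3.

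Rpl3 and Rpl3-ps1 are nearly the same sequence. The 1209 coding bases of Rpl3 aligned to the pseudogene without gaps with 1207 identical (99.8%) and 2 differences, C57A and T786C, written as the Rpl3 base, its position counted from 1 at the A of the start codon, and the pseudogene base. Each is shown with 20 bases on either side, on GRCm38, with the base that differs in capitals.
Rpl3 at position 57, chr15:80082509-80082549, minus strand: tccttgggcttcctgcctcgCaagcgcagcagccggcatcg
Rpl3-ps1 at position 57, chrX:13202608-13202648, plus strand: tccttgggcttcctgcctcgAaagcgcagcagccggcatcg
Rpl3 at position 786, chr15:80079733-80079773, minus strand: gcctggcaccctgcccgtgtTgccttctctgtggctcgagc
Rpl3-ps1 at position 786, chrX:13203337-13203377, plus strand: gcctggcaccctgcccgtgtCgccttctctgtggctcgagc

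A read from the coding region that covers neither position cannot be assigned to one or the other copy by its bases alone. Of all 50-base stretches in the annotated Rpl3 transcripts, 35.0% also occur in transcripts of other genes. Summed over Rpl3 and the 4 pseudogenes that hold at least 10% of its 50-base stretches, the level was 1090.0 and 1089.9 TPM in cKO and 1099.6 and 1072.4 TPM in Control. The sum thus lay inside the Control range, and its log2 fold change was 0.01 on TPM (limma, adjusted p = 0.986) and -0.27 on counts (edgeR, adjusted p = 1.00). The other pseudogenes of the set were Gm5879, at 15.9 and 14.7 TPM in cKO and 22.2 and 22.1 TPM in Control, and Gm12816, at 8.98 and 8.42 TPM in cKO and 3.89 and 3.83 TPM in Control. Whether RNA of Rpl3 or its assignment between the copies differed cannot be told apart in gene-level tables. Rpl3 lies on chromosome 15 (80077791 to 80091868, minus strand), 2.77 Mb from Rbfox2, and of the other 3 members on that chromosome Rpl8, at 0.173 Mb, had 1055 and 908 TPM in cKO and 976 and 1105 TPM in Control and overlapped. Rpl30, at 42.6 Mb, had 358.5 and 378 TPM in cKO and 548 and 428 TPM in Control, and Rpl37, at 72.0 Mb, had 484 and 506 TPM in cKO and 530.5 and 565.5 TPM in Control. Both were lower in both cKO libraries without passing the test (edgeR -0.48 and -0.27, adjusted p = 1.00 each).

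**Figure D3:**
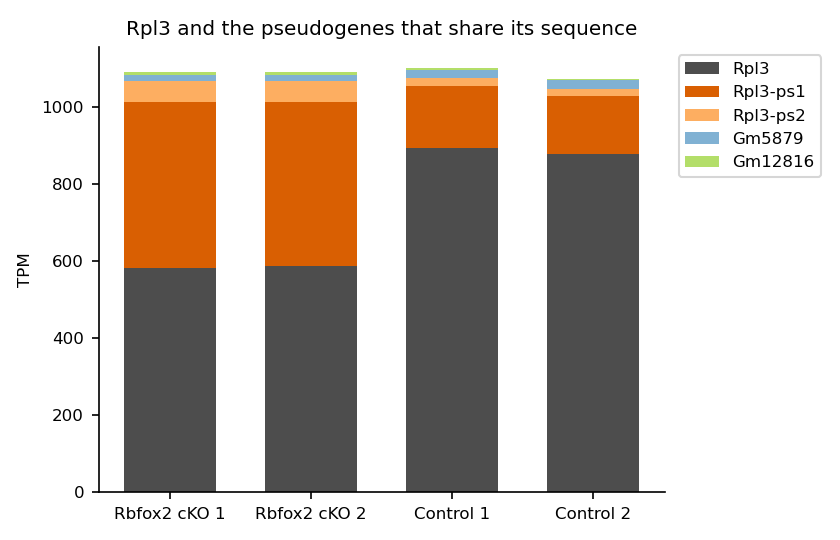
TPM of Rpl3 and of the 4 pseudogenes that share its sequence, stacked for each library, with the 2 cKO libraries on the left. The Rpl3 part is smaller and the Rpl3-ps1 part larger in cKO, and the full bars stand at 1090.0 and 1089.9 TPM in cKO and 1099.6 and 1072.4 TPM in Control.

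Rps24, a small-subunit protein whose gene is known for tissue-dependent alternative splicing of its short last exons, had the greatest relative difference in mean TPM among the members above 100 TPM. It had 391 and 415 TPM in cKO and 767 and 720 TPM in Control. The groups were far apart next to their spread, at 403 ± 16.8 TPM in cKO and 743 ± 32.8 TPM in Control (SD, n = 2 each), a mean 45.8% lower. The log2 fold change on TPM was -0.88 (SE 0.11, limma, adjusted p = 0.0318), and Rps24 was the 1 member called lower in that fit, where 0.0988% of all 17210 genes tested were. Without cKO 1 or without cKO 2 the adjusted p was 0.143 and 0.0578 (limma), with log2 fold changes of -0.84 and -0.92.

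The Rps24 counts did not show this difference. They were 16522 and 25864 in cKO and 24507 and 24128 in Control, or 190 and 290 CPM in cKO and 309 and 293 CPM in Control (edgeR log2 fold change -0.33, SE 0.36, adjusted p = 1.00). The count and the TPM of a gene are linked by a transcript length, and it is not stated which was derived from the other. The mean transcript length implied by count over TPM was 1101 and 1089 nt in cKO and 676 and 691 nt in Control. That is a log2 difference of 0.68 (SE 0.02). Of the 11193 genes for which it could be computed, 0.831% moved by at least 0.5 in either direction. Ordered by p-value (limma) and not by size, the Rps24 difference ranked 14 among all 11193. It was not called (limma, adjusted p = 0.121), and 0.00893% of all genes were. Rps24 has 12 annotated transcripts of 461 to 4059 nt, of which 5 are under 700 nt and 3 over 1000 nt. The 3 are a protein-coding transcript of 1613 nt and 2 retained-intron transcripts of 2769 and 4059 nt. Among the annotated transcripts, a mean length over 1000 nt needs a share of at least 1 of these 3. Which of them carried the change is not analysed here because the tables are per gene. No other gene holds 10% of the 50-base stretches of Rps24, which were pooled over all its annotated transcripts. A copy of 1 of the short transcripts can lie below that mark, so sharing of reads with such copies was not tested. Of the 6610 stretches, 4.9% also occur in other genes. Rps24 was singled out after its values were seen.

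**Figure D4:**
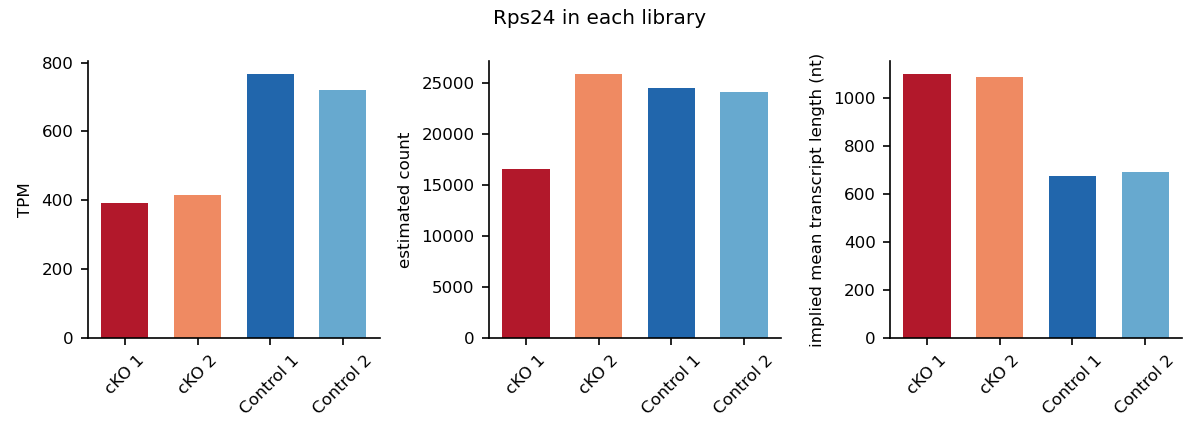
Rps24 in each library as TPM, as estimated count and as the mean transcript length in nt implied by count over TPM, with the 2 cKO libraries on the left. TPM is lower in cKO, the count of cKO 2 matches the Controls, and the implied length is 1101 and 1089 nt in cKO against 676 and 691 nt in Control.

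The implied length of the median member hardly moved. Over the 79 members where it could be computed the median absolute log2 difference was 0.01, against 0.027 over all genes.

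Rpl22l1 and Rpl22 are paralogs whose proteins take the same place in the large subunit, and in mice the Rpl22 protein is known to repress Rpl22l1. In satellite cells Rpl22l1 was the higher of the pair. It had 517 and 531 TPM in cKO and 716 and 755 TPM in Control, while Rpl22 had 98.2 and 96.0 TPM in cKO and 101.3 and 101.5 TPM in Control. Rpl22l1 was thus lower in both cKO libraries and Rpl22 nearly level. The Rpl22l1 mean was 28.7% lower (524 ± 9.83 against 735 ± 27.1 TPM, SD, n = 2 each), with a log2 fold change of -0.57 on counts (SE 0.36, edgeR, adjusted p = 1.00) and -0.49 on TPM (SE 0.10, limma, adjusted p = 0.104), so it did not pass the test on either. Without the filter on low TPM its adjusted p was 0.0163 (limma), in a fit that called 3 members and 0.218% of all genes lower. For Rpl22 the log2 fold change was -0.18 on counts and -0.06 on TPM (limma, adjusted p = 0.836). The ratio of Rpl22l1 to Rpl22 was 5.27 and 5.53 in cKO and 7.07 and 7.43 in Control. Unlike for Rpl3, adding the sequence partner of Rpl22l1, Gm15421, left the difference in place, at 529.2 and 556.8 TPM in cKO and 738.7 and 775.6 TPM in Control.

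The paralogs known for other tissues were near the floor. Rpl3l, which replaces Rpl3 in mature muscle fibres and heart, had 0.668 and 0.412 TPM in cKO and 0.491 and 0.662 TPM in Control, from 20 to 45 counts a library. The groups overlapped, and its level was at most 0.115% of that of Rpl3. Mature fibre markers beside it summed over 14 genes to 102.1 and 61.8 TPM in cKO and 105.6 and 97.9 TPM in Control. Rpl10l, which stands in for the X-linked Rpl10 in male germ cells, had 0.667 and 0.210 TPM in cKO and 0.0138 and 0.266 TPM in Control, with 1 count in Control 1. Rpl39l, another testis paralog, had 0.539 and 0.251 TPM in cKO and 0.379 and 0.371 TPM in Control. None of these 3 passed the test (edgeR, adjusted p = 1.00 each), and at such counts differences of this size were not detectable.

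Rps27l, Rpl36al and Rpl7l1 were detected at over 100 TPM beside their partners. Rps27l, a p53 target, had 371 and 406 TPM in cKO and 490 and 481 TPM in Control, which is 11.6% and 13.3% of Rps27 in cKO and 15.3% and 13.8% in Control. Rpl36al had 429 and 464 TPM in cKO and 588 and 547 TPM in Control, close to the 442 and 439 TPM in cKO and 508 and 497 TPM in Control of the X-linked Rpl36a. Rpl7l1, which is known from ribosome assembly in the nucleolus, had 181 and 183 TPM in cKO and 211 and 234 TPM in Control, against 1121 and 1115 TPM in cKO and 1418 and 1187 TPM in Control for Rpl7. All 3 lay below both Controls in both cKO libraries without passing the edgeR test, at log2 fold changes of -0.44, -0.45 and -0.42 (adjusted p = 1.00 each). Rps4l had 13.8 and 9.15 TPM in cKO and 7.53 and 10.8 TPM in Control, under 1% of Rps4x, which had 1661 and 1647 TPM in cKO and 2021 and 1839 TPM in Control. Rpl39 had 306 and 309 TPM in cKO and 385 and 368 TPM in Control, and Rpl10 had 701 and 726 TPM in cKO and 794 and 749 TPM in Control.

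**Figure D5:**
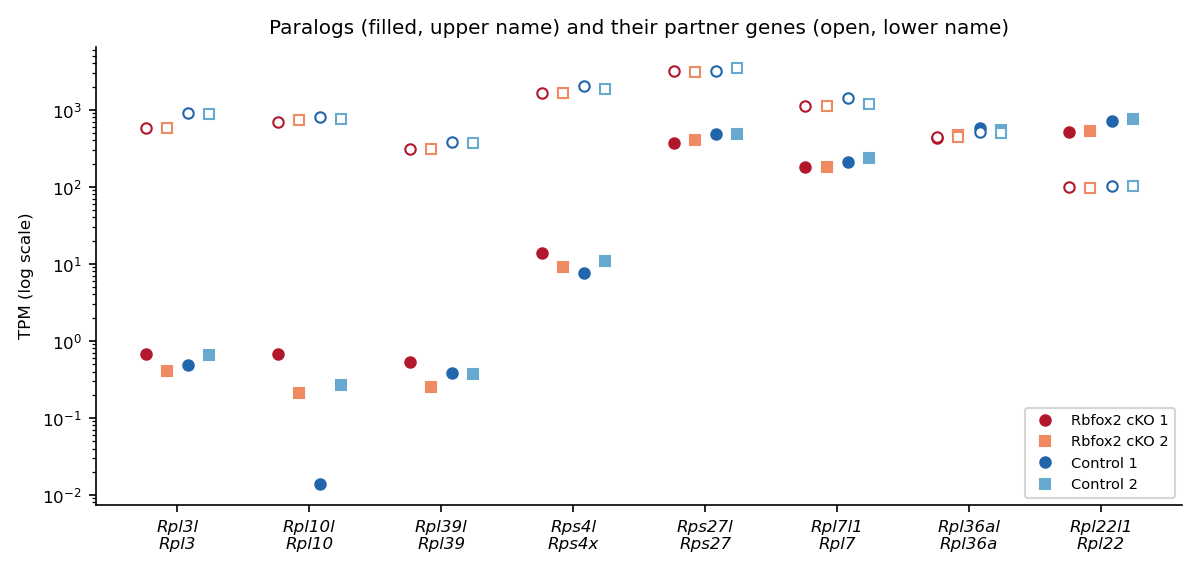
TPM on a log axis of 8 paralogs (filled) and their partner genes (open) in each library, with cKO left of Control within each pair. Rpl3l, Rpl10l and Rpl39l lie under 1 TPM, Rpl36al lies level with Rpl36a, and Rpl22l1 lies above Rpl22 in all 4 libraries.

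Several other members also have sequence copies elsewhere in the genome. Over the 85 members the median share of 50-base stretches found in other genes was 23.5%, and 62 members had at least 1 other gene holding 10% or more of theirs. Rpl29, with the lowest log2 fold change among members of at least 4 CPM, was itself scarce and had 11.1 and 4.57 TPM in cKO and 13.7 and 12.2 TPM in Control (edgeR -0.93, SE 0.35, adjusted p = 0.474). Without cKO 1 it was called (edgeR -1.31, adjusted p = 0.0282), in a fit that called 0.73% of all genes lower. Its level is 3.7% of the level of Rpl29 and its 16 partners (among them the protein-coding Uimc1) together, which was 309.5 and 261.8 TPM in cKO and 256.8 and 296.8 TPM in Control and overlapped. Rpl7a had 74.0 and 159 TPM in cKO and 168 and 184 TPM in Control, low in cKO 1 alone, and made up 12.5% of a set with 18 partners at 1068.1 and 1083.6 TPM in cKO and 1264.7 and 1267.9 TPM in Control. Rpl17, with 75.5 and 116 TPM in cKO and 113 and 70.2 TPM in Control, had no order by group and made up 8.1% of its set. The set as a whole, with 10 partners, had 1107.9 and 1029.9 TPM in cKO and 1221.6 and 1294.9 TPM in Control. It was thus lower in both cKO libraries, without being called (limma on TPM, adjusted p = 0.345). Rps27a, which is made as a fusion to ubiquitin, overlapped at 1234 and 1093 TPM in cKO and 1264 and 1082 TPM in Control. Summed with its 2 partners it had 1453.4 and 1418.8 TPM in cKO and 1795.1 and 1710.3 TPM in Control. That sum was lower in both cKO libraries, without being called (limma on TPM, adjusted p = 0.25). The partner Rps27a-ps2 was lower in cKO, at 85.1 and 161 TPM in cKO and 276 and 360 TPM in Control (edgeR log2 fold change -1.42, adjusted p = 0.0112, and limma on TPM, adjusted p = 0.196). That edgeR call too was lost without either Control library. Over the 22 alternative settings it changed in 16, against 7 for Rpl3-ps1 and 8 for Rpl3-ps2.

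At the other end of the order by log2 fold change, the members that stood highest in cKO did not separate the groups. Rpl35a had 363 and 186 TPM in cKO and 210 and 235 TPM in Control, and Rpl10a had 646 and 600 TPM in cKO and 761 and 437 TPM in Control. Rpl36 had 1329 and 1102 TPM in cKO and 934 and 1220 TPM in Control. In each the groups overlapped, and the edgeR log2 fold changes were 0.04, 0.08 and 0.02. On the small subunit Rps18, Rps12 and Rps9 had log2 fold changes of -0.11, -0.11 and -0.12, and at the low end Rps13, Rps25 and Rps7 had -0.41, -0.38 and -0.37, all with an adjusted p of 1.00 in edgeR. Rps13 had 662 and 639 TPM in cKO and 780 and 801 TPM in Control, and Rps25 had 415 and 409 TPM in cKO and 485 and 483 TPM in Control. Both kept the libraries of a group close together and the groups apart. Fau, whose product is fused to a ubiquitin-like protein, overlapped at 1526 and 1337 TPM in cKO and 1274 and 1579 TPM in Control.

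The next list held 20 other genes with TOP mRNAs, among them translation factors. By edgeR 0 were called higher and 0 lower. Of all genes tested 0.551% were called in either direction, a share so low that 0 calls in lists this short say little. Of the 20, 18 had a negative log2 fold change (45% of all genes did). The median was -0.35, or -0.19 on TPM, against 0.06 and 0.13 over all genes. Both cKO libraries were below both Control libraries in CPM for 11 of the 20 (13.3% of all genes). Eef1a1, the elongation factor that delivers tRNAs, had 6773 and 6720 TPM in cKO and 7738 and 7078 TPM in Control. Rack1, a scaffold on the small subunit, had 608 and 611 TPM in cKO and 726 and 736 TPM in Control. Among 15 regulators of TOP mRNAs 0 were called by edgeR, and the median log2 fold change was -0.21 on counts and -0.07 on TPM. Of these, Larp1 had 12.5 and 16.8 TPM in cKO and 16.2 and 14.4 TPM in Control. Among 7 chaperones dedicated to single ribosomal proteins 0 were called by edgeR, with a median of -0.18 on counts and 0.06 on TPM. One of them, Tsr2, known from yeast and human cells to escort Rps26, had 107 and 118 TPM in cKO and 66.8 and 58.0 TPM in Control (limma on TPM, log2 fold change 0.84, adjusted p = 0.0548), and 0.20 on counts (edgeR, adjusted p = 1.00). Rps26 itself had 835 and 848 TPM in cKO and 937 and 1025 TPM in Control.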

How the data were processed

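The authors deposited 2 gene tables, one of estimated counts (whole numbers) and one of TPM, for 55487 genes in 4 libraries. The build GRCm38, StringTie 1.3.6 and HISAT2 2.1.0 are listed in the submitters' processing notes without saying what each did. Per the labels' protocols, cDNA was made from 10 ng RNA by SMART-Seq, which does not mark strand by itself. Symbols and coordinates came from GENCODE M21.

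Counts were compared with edgeR 4.0.16 (TMM, filterByExpr, robust quasi-likelihood test, common biological coefficient of variation 0.373) and log2(TPM + 1) with limma 3.58.1 where the mean TPM was 1 or more, in R 4.3.3, both adjusted by Benjamini-Hochberg over all genes tested with a threshold of 0.05. TPM fold changes understate changes of low genes. DESeq2 1.42.0 was an alternative. Scripts were tested on simulated data. The implied transcript length is count over TPM times a constant per library, set on single-transcript genes, for genes with at least 200 counts. Sequence sharing was counted over stretches of 50 bases in GENCODE M21 transcripts.

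Named genes were the paralogs, their partners, stalk and fusion genes, Rps6, Rpl5, Rpl11, Rps19, and per subunit the 4 highest and 4 lowest log2 fold changes (mean CPM of at least 4) and the 3 highest and 3 lowest TPM. Values of some of these genes are not reported here. The members and lists were chosen with earlier results of these data known. Libraries of a group differed beyond counting error (chi-square over degrees of freedom 83.5 in cKO and 49.6 in Control).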

Additional observations from a re-analysis of the deposited data

How the results depend on the processing

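The count of members called was 0 in edgeR with DESeq2 size factors, where 119 of 38143 genes were called in either direction. It was 0 with all counted genes kept (28 of 54471 genes called) and with 2 libraries required to reach 5 CPM (14 of 10011). It was also 0 in DESeq2 (92 of 54471) and with the replicate block (96 of 38143). It was 1 (Rpl3) with library totals, and with each library left out in turn it ran from 0 to 50, with 1 (Rpl29) without cKO 1 and 50 without cKO 2. On TPM it was 1 (Rps24) with a pseudocount of 1 or 0.1 and 3 (Rpl22l1, Rpl3 and Rps24) without the filter. The following settings were chosen after seeing the data. The count was 0 with scaling to the members' own counts (653 of 38143 genes called) or with counts of sequence partners added (210 of 38144). It was 1 with partners added on TPM (53 of 17211) and 1 on TPM with the replicate block (68 of 17210). On TPM with each library left out, the members' median log2 fold change ran from -0.20 without cKO 1 to -0.11 without Control 2. The log2 ratio of summed TPM was -0.14, or -0.28 on TMM CPM. With each library left out, the log2 ratio of Rpl7l1 to Rpl7 between groups ran from -0.28 to 0.13 (-0.09 with all 4), that of Rpl10l to Rpl10 from 0.64 to 5.16 (1.74 with all 4, 1 count in Control 1), and that of Rpl39l to Rpl39 from -0.29 to 0.82 (0.37 with all 4).

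The replicate number as a block in edgeR gave 96 called genes against 210, and 0 members. The labels do not say what the number marks, and same-numbered libraries deviated from their group means with a correlation of -0.179. The crossed pairing, chosen after seeing the data, gave 243 called genes and 0 members. With 2 libraries a group, a common coefficient of variation of 0.373 limits what edgeR can call, and the TPM table keeps no depth.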

Other observations

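Pseudogenes named after ribosomal protein genes were also measured, 292 in all. They summed to 9879 and 9471 TPM in the cKO libraries and 10459 and 10709 TPM in the Control libraries, so both cKO sums lay below both Control sums. Of the 222 tested by edgeR, 2 rose (Rpl3-ps1 and Rpl3-ps2) and 1 fell (Rps27a-ps2), where 0.551% of all genes tested were called, and the median log2 fold change was -0.19. On TPM 163 were tested, with 2 called higher and 0 lower by limma. These genes share sequence with the members, so their levels and those of the members are not independent measurements.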
